A study of Homo sapiens with 18 samples.

Results

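Paclitaxel was compared with no drug in MDA-MB-231 cells kept in hypoxia. The comparison took the 3 arrays titled as paclitaxel at 1% oxygen (H tax, 50 µM for 16 hours) against the 3 titled as control cells at 1% oxygen (H, no drug for 16 hours), 6 of the 18 arrays of the series. MDA-MB-231 is an established human breast cancer line of mesenchymal character with mutant p53, and all groups were held in medium without serum during the incubation, so the control cells had no serum either. The same drug and dose in normoxia (N tax, 3 arrays, against N, 3 arrays without drug) served as the nearest comparison, and the epirubicin arrays were not used. RNA was read on Affymetrix HG-U133 Plus 2.0 arrays, and each value below is a log2 signal after the authors' GC-RMA normalization, so a difference of 1 stands for a change of 2-fold.

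Paclitaxel, a taxane, binds beta-tubulin inside the microtubule, keeps the polymer from shortening and holds dividing cells in mitosis. In hypoxia the oxygen-dependent prolyl hydroxylases no longer mark the alpha subunit of hypoxia-inducible factor 1 (HIF-1) for destruction, and HIF-1 then drives genes of glycolysis, angiogenesis and cell survival. Whether cells in hypoxia answer paclitaxel in the same way as cells in normoxia bears on the question behind the series, which is how low oxygen protects tumour cells from the drug.

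The labels of the third arrays disagreed. For H tax array 3 the source name says control cells, and for H array 3 it says epirubicin, while the titles give paclitaxel and control. The third normoxic arrays disagree in the same way, with control cells in the source name of N tax array 3 and epirubicin in that of N array 3, and they enter the spread that all tests share and the normoxic effect. Conditions were taken from the titles, and the comparison was repeated with arrays 1 and 2 only. Correlations were taken over all 54613 probe sets outside the controls, including those with low signal. H tax array 3 correlated with the other H tax arrays at 0.9974 to 0.9977 and with the H arrays at 0.9863 to 0.9870. H array 3 correlated with the other H arrays at 0.9978 to 0.9980 and with the H tax arrays at 0.9865 to 0.9872. Between 42.3% and 42.6% of probe sets were present on the H tax arrays, against 42.2% to 42.5% on the H arrays, where present means a linear signal over 8.8 (3.14 on the log2 scale). All 10 mesenchymal markers fixed for this line were present in both conditions, and the 5 blood markers on the array were under the threshold on all 6. Of 10 luminal markers 6 were also present in both conditions, with a summed linear signal of 18625.9 to 22283.2 in H tax, against 20962.5 to 25912.4 in H, while CDH1, ESR1, FOXA1 and PGR were under the threshold on all 6 arrays. The ACTB control probe sets differed between their 3' and 5' ends by 0.239 to 0.43 in H tax, against 0.071 to 0.306 in H, and the part of this RNA-quality measure in the results was not tested. Since these are bulk samples, fewer cells of one state and less RNA per cell cannot be told apart.

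Paclitaxel in hypoxia moved about as many genes up as down. Among 11054 genes tested, each read by 1 probe set (that of the highest mean), 2984 rose (27.0%) and 2836 fell (25.7%) in H tax relative to H at an adjusted p under 0.05 (limma, Benjamini-Hochberg over 23598 probe sets). Together these were 52.7% of genes, and by probe set the counts were 6004 higher (25.4%) and 5724 lower (24.3%), 49.7% in all. The median log2 change of all genes tested was 0.01, and for 6444 genes (58.3%) the 3 H tax arrays did not overlap the 3 H arrays. Large changes were fewer, with 732 genes higher (6.62%) and 852 lower (7.71%) by at least 2-fold, and 111 higher (1.00%) and 148 lower (1.34%) by at least 4-fold. With arrays 1 and 2 only, 2137 genes rose and 2416 fell of 10985, and 4386 genes were called in the same direction in both fits. Placing the third arrays by their source names left 0 probe sets higher and 0 lower after adjustment, with 455 and 687 at an unadjusted p under 0.05 by limma.

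**Figure D1:**
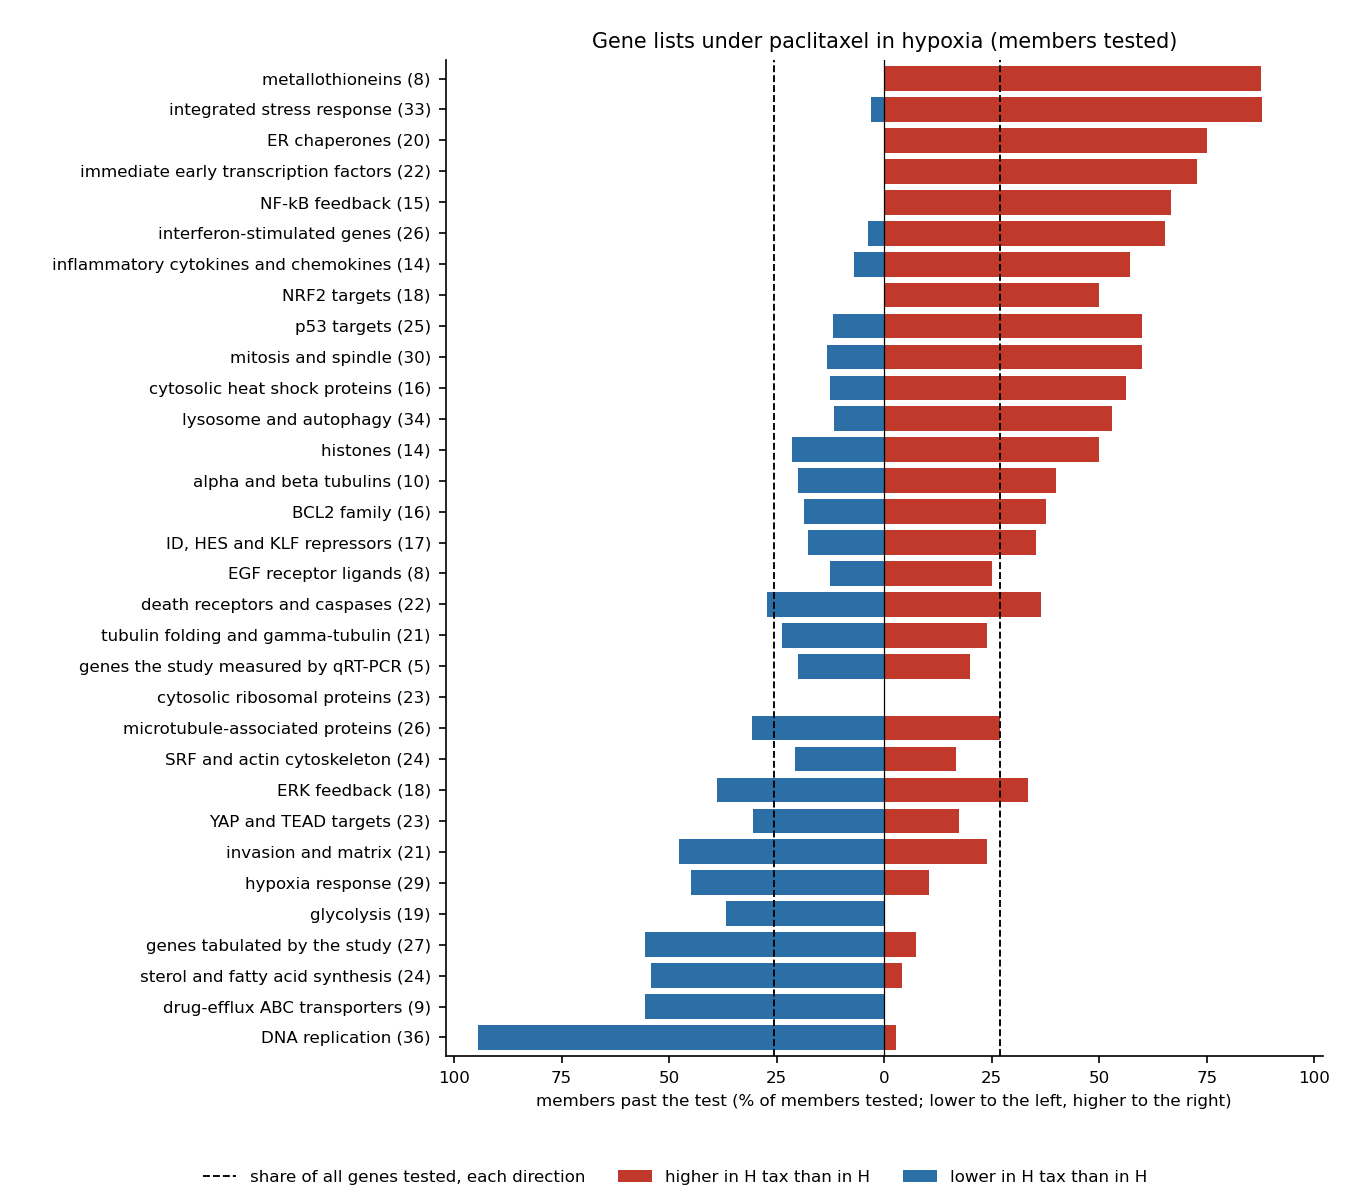
Share of tested members of each gene list shown that rose (red, right) or fell (blue, left) in H tax relative to H, in percent, with the number of members tested in brackets. Dashed lines mark the shares of all 11054 genes, 27.0% higher and 25.7% lower. The metallothioneins, stress response and ER chaperones stand at the top, and DNA replication at the bottom, with 34 of 36 members lower.

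The largest rises held genes of several kinds. CH25H, the enzyme that makes 25-hydroxycholesterol and is known as an interferon-induced gene, read 8.52, 8.33 and 8.54 on the H tax arrays, against 2.88, 3.17 and 2.96 on the H arrays, so that 2 of the 3 H arrays were under the presence threshold and the size of its rise is uncertain. LAMP3, a lysosomal membrane protein of the unfolded protein response, read 9.80, 9.21 and 9.71 in H tax, against 4.31, 4.66 and 4.34 in H, 35.1-fold higher. For both genes the arrays of H tax lay far over those of H. CCL5, a chemokine that draws T cells and monocytes, read 7.08, 7.35 and 7.57 in H tax, against 2.40, 2.44 and 2.45 in H, so that it was under the presence threshold on every H array and rose at least 18.3-fold. DHRS2, a short-chain dehydrogenase, rose by 5.03 ± 0.37 (SE, adjusted p = 2.16e-06), and NMRAL2P, a transcribed pseudogene, also rose, with 2 of its 3 H arrays under the presence threshold. PLCG2, a phospholipase C that signals below immune receptors, rose 14.2-fold, and S100P, a calcium-binding protein, rose 12.7-fold. The other 8 of the 15 largest rises were GDF15, RSAD2, HSPA6, OASL, ATF3, DDIT3, NUPR1 and IFIT2, which are described with their pathways.

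The largest falls were likewise of varied genes. SHROOM2, an actin-binding protein that shapes epithelial sheets, read 3.12, 3.29 and 3.37 on the H tax arrays, against 8.23, 8.64 and 8.90 on the H arrays, a change of -5.33 ± 0.21 (SE, adjusted p = 9.79e-08), of uncertain size because 1 H tax array was under the presence threshold and the others lay close to it. ASB2, a substrate receptor of a ubiquitin ligase, read 2.23, 2.25 and 2.24 in H tax, against 7.22, 6.98 and 7.68 in H, which was at least 17.8-fold lower because no H tax array reached the presence threshold. PDE8B, a cyclic AMP phosphodiesterase, was likewise under the threshold on all H tax arrays and at least 9.39-fold lower. SOX4, a transcription factor of epithelial-mesenchymal transition and development, read 5.50, 5.62 and 5.05 in H tax, against 8.99, 9.84 and 9.63 in H, 17.1-fold lower in H tax. For ADGRF1, an adhesion G protein-coupled receptor, the change was -4.10 ± 0.28 (SE, adjusted p = 1.29e-06), and 2 of its 3 other probe sets also fell, within a range of -2.76 to -0.11 over the 3. OLFML2A, an olfactomedin of the matrix, SERTAD4, a SERTA domain protein, and INHBB, the beta B subunit of activins and inhibins, changed by -3.97, -3.91 and -3.53. ASB9, ADAMTS15, a secreted metalloproteinase that cuts matrix proteoglycans, NDP, a ligand of Wnt signalling, and TLCD4 changed by -3.81, -3.49, -3.46 and -3.28. In H tax, 2 of 3 arrays of ADGRF1 and 1 of 3 of NDP were under the presence threshold, so the sizes of these falls are uncertain too. CCNE2, UCN2 and RASSF2 complete the 15. All 30 of these genes passed the test with arrays 1 and 2 only, and 29 of the 30 passed it in the same direction in normoxia, with RASSF2 the exception.

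Genes of the integrated stress response rose, with few exceptions. In this pathway, kinases that sense misfolded protein, missing amino acids or other stress phosphorylate the initiation factor eIF2 alpha, general translation slows, and the transcription factor ATF4 is translated and switches on its targets. In H tax, 29 of 33 tested members rose and 1 fell (87.9% and 3.03%, beside 27.0% and 25.7% of all genes). The median change was 1.41 (26 higher of 33 with arrays 1 and 2 only). Among the regulators, DDIT3 (CHOP), the factor downstream of ATF4, read 11.82, 11.81 and 11.74 on the H tax arrays, against 8.77, 7.74 and 7.82 on the H arrays, 12.8-fold higher with a change of 3.68 ± 0.27 (SE, adjusted p = 2.23e-06). ATF3, which dimerizes with other stress factors, read 11.19, 10.62 and 10.91 in H tax, against 7.43, 6.56 and 6.78 in H, 15.8-fold higher. For both genes the 3 H tax arrays lay close together and far over every H array. PPP1R15A (GADD34), which brings the phosphatase that reverses eIF2 alpha phosphorylation, rose by 3.28 ± 0.30 (SE, adjusted p = 9.39e-06), and TRIB3, a pseudokinase target of CHOP, by 2.72 ± 0.24 (SE, adjusted p = 6.89e-06). ATF4 itself read 13.98, 14.02 and 14.07 in H tax, against 13.07, 12.14 and 12.62 in H, 2.66-fold higher. NUPR1, a small stress-induced chromatin protein, and SESN2, which restrains mTORC1 when leucine is short, rose by 3.65 and 3.41 on the log2 scale.

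Other members of the list act in amino acid supply, redox balance and secretion. ASNS, asparagine synthetase, read 14.05, 14.03 and 14.06 on the H tax arrays, against 12.08, 10.28 and 11.35 on the H arrays. Its H arrays were spread widely while its H tax arrays were level, and the change was 2.81 ± 0.33 (SE, adjusted p = 5.39e-05). PHGDH, the first enzyme of serine synthesis, and SLC3A2, the heavy chain shared by several amino acid transporters, rose 6.11-fold and 7.67-fold. CHAC1, which degrades glutathione, read 9.84, 10.02 and 10.19 in H tax, against 8.04, 6.42 and 6.99 in H, 7.3-fold higher. GDF15, a secreted stress hormone of the TGF-beta family, read 10.00, 9.83 and 10.14 in H tax, against 5.41, 4.86 and 5.34 in H, with a change of 4.79 ± 0.72 (SE, adjusted p = 0.000267). PSPH, the last enzyme of serine synthesis, did not pass the test (0.16, adjusted p = 0.289). DDIT4, an inhibitor of mTORC1 that answers both stress and hypoxia, changed by 0.27 ± 0.10 (SE, adjusted p = 0.052), and is taken up again with the effects by oxygen level. For ASNS, CHAC1 and ATF4, the fit of arrays 1 and 2 of H tax and H alone gave adjusted p = 0.0649, 0.0606 and 0.0739.

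Promoters of this list are shown because ATF4 and CHOP bind a composite element, searched here as TGATGNAA on both strands (N is any base). Of 29 members with a promoter window in RefSeq (GRCh38.p14, 250 bases before and 50 after the gene's start), 7 held it, and all 7 rose in H tax, while 3.67% of 27305 promoters held it. Since 29 of 33 tested members of the list rose, the direction of these 7 says nothing about the element. A match is only a run of letters. The stretches below are from ATF3 (chr1:212565186-212565253, plus strand), CHAC1 (chr15:40953232-40953299, plus strand) and ASNS (chr7:97872439-97872506, minus strand), 5′ to 3′ along the gene, with the matched bases in capitals.
ATF3: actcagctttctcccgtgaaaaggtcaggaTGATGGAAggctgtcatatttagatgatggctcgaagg
CHAC1: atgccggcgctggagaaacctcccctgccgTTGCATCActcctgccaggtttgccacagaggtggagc
ASNS: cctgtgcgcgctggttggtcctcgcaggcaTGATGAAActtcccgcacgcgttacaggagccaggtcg

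**Figure D2:**
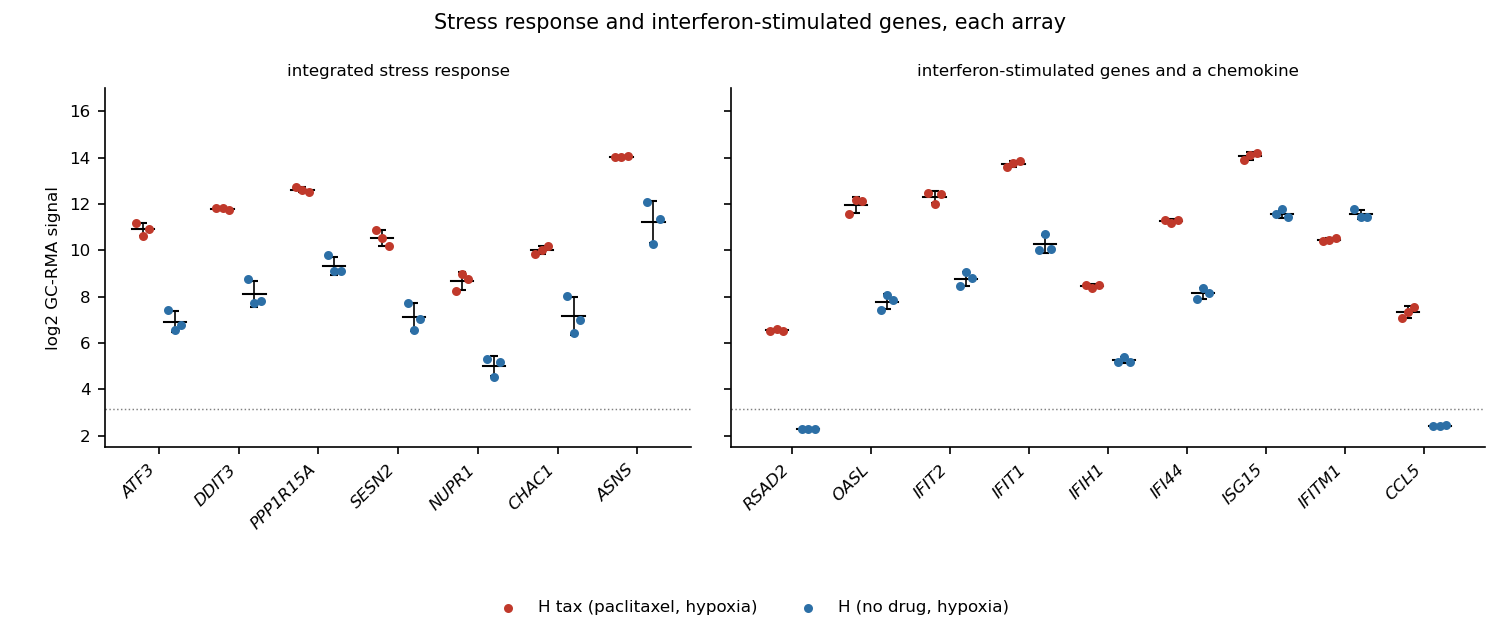
Log2 GC-RMA signal on each array (points) of 16 genes in H tax (red, left) and H (blue, right), with the mean and SD of 3 arrays. The dotted line is the presence threshold of 3.14. For 15 of the 16 genes all H tax arrays lie over all H arrays, and IFITM1 runs the other way.

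Interferon-stimulated genes were more often higher than lower. Such genes are switched on when a cell senses foreign or misplaced nucleic acid, or receives interferon, and they encode antiviral effectors and sensors. Here 17 of 26 tested members rose and 1 fell (65.4% and 3.85%, beside 27.0% and 25.7% of all genes). The median change was 1.35 (14 higher and 1 lower of 25 with arrays 1 and 2 only). RSAD2 (viperin), an antiviral enzyme of lipid droplets, read 6.51, 6.61 and 6.52 on the H tax arrays, against 2.29, 2.29 and 2.29 on the H arrays, so it was under the presence threshold without drug and at least 10.6-fold higher with it. OASL, a relative of the oligoadenylate synthetases, read 11.58, 12.18 and 12.12 in H tax, against 7.42, 8.06 and 7.85 in H, 18.1-fold higher. IFIT2, an RNA-binding antiviral protein, read 12.49, 12.02 and 12.42 in H tax, against 8.48, 9.08 and 8.79 in H, 11.5-fold higher. In all of these the arrays of each condition stayed within 1 log2 unit of each other, far less than the change. IFIT1, a paralog of IFIT2, and IFIH1 (MDA5), a sensor of long double-stranded RNA, rose by 3.48 ± 0.21 (SE, adjusted p = 7.22e-07) and 3.19 ± 0.17 (SE, adjusted p = 4.21e-07). IFI44 rose 8.77-fold by its brightest probe set, while its other probe set gave 1.27 and was not called, and ISG15, a ubiquitin-like modifier, rose 5.58-fold. The exception among the members past the test was IFITM1, a membrane protein that hinders virus entry, which read 10.39, 10.46 and 10.55 in H tax, against 11.77, 11.44 and 11.45 in H and fell by 1.08 on the log2 scale (adjusted p = 3.41e-05).

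The interferon-stimulated response element, bound by proteins of the IRF family, was searched as its core GAAANNGAA on both strands in the same windows. Of 21 members with a promoter window, 16 held it (10 rose, 1 fell, the others did not pass the test), against 8.29% of 27305 promoters. In the whole list 17 of 26 tested members rose and 1 fell, so the directions say nothing about the element. IFIT1 (chr10:89392478-89392546, plus strand), IFI44 (chr1:78649742-78649788, plus strand), IFIH1 (chr2:162318810-162318878, minus strand) and ISG15 (chr1:1013354-1013422, plus strand) are shown, with the matches inside each stretch in capitals. Some run into each other, as in IFIH1 and ISG15, and a run beginning ttc is the element read from the other strand.
IFIT1: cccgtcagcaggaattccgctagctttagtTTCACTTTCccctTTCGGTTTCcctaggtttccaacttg
IFI44: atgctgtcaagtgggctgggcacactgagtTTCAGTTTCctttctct
IFIH1: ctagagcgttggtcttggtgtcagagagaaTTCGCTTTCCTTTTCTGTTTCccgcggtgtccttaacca
ISG15: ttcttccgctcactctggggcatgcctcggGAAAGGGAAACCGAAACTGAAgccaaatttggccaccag

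Of the cytokines and chemokines, 8 of 14 tested members rose and 1 fell (57.1% and 7.14%, beside 27.0% and 25.7% of all genes). The median change was 1.86. But with arrays 1 and 2 only the counts were 3 higher and 1 lower of 14, beside 2137 and 2416 of 10985 genes. The share that rose was then near that of all genes, and nothing is read from it. CXCL2, a neutrophil chemokine, read 8.13, 7.40 and 7.97 on the H tax arrays, against 4.44, 5.38 and 4.38 on the H arrays, and its change was 3.10 ± 0.65 (SE, adjusted p = 0.00236), with an adjusted p of 0.0647 from arrays 1 and 2 only. IL6 read 8.62, 7.96 and 8.75 in H tax, against 6.13, 5.90 and 6.32 in H, a change of 2.33 ± 0.75 (SE, adjusted p = 0.0235) whose adjusted p was 0.0547 to 0.0685 when H array 1, H array 2, H tax array 1 or H tax array 3 was left out, and 0.158 with arrays 1 and 2 only. For CXCL3 and CXCL11, chemokines of neutrophils and of T cells, the changes were 2.30 and 2.21 (adjusted p = 0.0131 and 0.0057), and 0.135 and 0.116 with arrays 1 and 2 only. CXCL8 did not pass the test although its arrays did not overlap (9.76, 8.69 and 9.67 in H tax, against 7.41, 7.60 and 7.67 in H, adjusted p = 0.224). The spread shared by the 4 conditions was wide for these genes in normoxia, where N array 2 read 12.17 for CXCL8 and N arrays 1 and 3 read 6.98 and 7.22, and the adjusted p of CXCL8 was 0.0258 without N array 2 and 0.00478 in a fit of H tax and H alone. IL11, a cytokine of the IL-6 family, went the other way and read 7.52, 7.58 and 7.19 in H tax, against 10.05, 9.50 and 9.06 in H, 4.32-fold lower.

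NF-kB, the dimeric factor behind many of these cytokines, induces its own subunits and inhibitors. Of these genes 10 of 15 tested members rose and 0 fell (limma, with 0 lower at an unadjusted p under 0.05). That is 66.7% higher, beside 27.0% of all genes (median 0.71, 8 higher of 15 with arrays 1 and 2 only). RELB, a subunit of the non-canonical pathway, read 7.31, 7.60 and 7.53 on the H tax arrays, against 5.32, 4.06 and 4.87 on the H arrays, and NFKB2, its partner, read 9.29, 9.31 and 9.43 in H tax, against 7.54, 7.48 and 7.57 in H. They rose 6.64-fold and 3.53-fold. NFKBIE, an inhibitor that keeps NF-kB in the cytoplasm, rose by 1.31 ± 0.14 (SE, adjusted p = 2.58e-05). TNFAIP3 (A20), a ubiquitin-editing brake on the pathway, had a change of 1.90 ± 0.59 (SE, adjusted p = 0.0208), but an adjusted p of 0.052 to 0.0601 without H array 1, H array 3 or H tax array 1, and 0.14 with arrays 1 and 2 only. The main inhibitor gene NFKBIA did not pass the test (0.37, adjusted p = 0.346), and passed it without N tax array 2 (adjusted p = 0.0244).

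Immediate early transcription factors, which growth factors and stress switch on within minutes, were high after 16 hours of paclitaxel in hypoxia. Of this list 16 of 22 tested members rose and 0 fell (limma, with 0 lower at an unadjusted p under 0.05). That is 72.7% higher, beside 27.0% of all genes (median 0.88, 13 higher of 22 with arrays 1 and 2 only). FOS, a subunit of AP-1, read 7.14, 6.73 and 7.32 on the H tax arrays, against 4.11, 3.98 and 3.36 on the H arrays, 9.49-fold higher. EGR1, a zinc finger factor of the ERK pathway, read 13.34, 12.67 and 13.07 in H tax, against 10.13, 9.94 and 9.25 in H, 9.55-fold higher. FOSB and JUNB rose by 1.25 and 1.34, and KLF4 by 1.53, with adjusted p = 0.00102, 5.84e-05 and 1.48e-05, but 0.0888, 0.141 and 0.155 in a fit of all 6 conditions of the series. JUN averaged 11.55 ± 0.41 in H tax and 11.59 ± 0.13 in H (SD, n = 3 each) and did not pass the test (limma, adjusted p = 0.899).

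Genes that damp ERK signalling went both ways, and nothing is read from their counts. Among them 6 of 18 rose and 7 fell (33.3% and 38.9%), beside 27.0% and 25.7% of all genes. With arrays 1 and 2 only, 4 rose and 5 fell of 18. DUSP10, a phosphatase of the stress kinases p38 and JNK, read 7.37, 7.39 and 6.93 in H tax, against 5.33, 5.57 and 4.92 in H, 3.88-fold higher. DUSP4, a nuclear phosphatase, and SPRY1 (Sprouty 1), an inhibitor of receptor tyrosine kinase signalling, fell by 1.59 and 2.31 on the log2 scale. The inhibitors of differentiation split as well, with ID1 at 8.55, 8.89 and 8.55 in H tax, against 11.78, 11.95 and 11.84 in H, 9.14-fold lower, and ID2 at 8.06, 7.50 and 7.73 in H tax, against 4.48, 4.31 and 4.11 in H, 11-fold higher. Both proteins bind and block basic helix-loop-helix factors, and for neither did the conditions overlap. HEY1, a repressor of the Notch pathway, rose by 1.53 ± 0.33 (SE, adjusted p = 0.00263).

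Cytosolic heat shock proteins refold or clear damaged proteins under heat shock factor 1. Of them, 9 of 16 tested members rose and 2 fell (56.25% and 12.5%, beside 27.0% and 25.7% of all genes). The median change was 0.33, and with arrays 1 and 2 only 8 rose and 2 fell of 16. HSPA6, a strictly inducible member of the HSP70 family, read 7.40, 7.20 and 5.53 on the H tax arrays, against 2.39, 2.75 and 2.33 on the H arrays. It was under the presence threshold on all H arrays, and rose at least 11.9-fold, with H tax array 3 the lowest of its group. HSPB8, a small heat shock protein that works with BAG3 in selective autophagy, read 8.56, 8.18 and 7.57 in H tax, against 5.23, 5.59 and 4.89 in H, 7.28-fold higher. DNAJB1, an HSP40 that feeds clients to HSP70, read 13.65, 13.58 and 13.04 in H tax, against 11.71, 11.79 and 11.82 in H, 3.13-fold higher, and HSPH1, a nucleotide exchange factor of HSP70, rose by 0.81 ± 0.14 (SE, adjusted p = 0.000612). HSPA4L, a relative of HSPH1, fell by 0.76 on the log2 scale (adjusted p = 0.000874). The paired core of the heat shock element, GAANNTTC, was in 6 of 16 promoters of the list, against 6.87% of all promoters, and 3 of those members rose and 1 fell. HSPA6 (chr1:161524330-161524397, plus strand) is shown as the member with the largest rise, with the first of its 2 matches in capitals.
HSPA6: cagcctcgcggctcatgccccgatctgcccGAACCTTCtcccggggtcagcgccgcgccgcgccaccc

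Chaperones and folding factors of the endoplasmic reticulum (ER), the targets of ATF6 and XBP1, rose in smaller steps. Here 15 of 20 tested members rose and 0 fell (limma, with 0 lower at an unadjusted p under 0.05). That is 75% higher, beside 27.0% of all genes (median 0.84, 13 higher of 20 with arrays 1 and 2 only). DNAJB9 (ERdj4), a co-chaperone of BiP, read 13.32, 13.08 and 13.27 on the H tax arrays, against 10.63, 10.36 and 10.20 on the H arrays, 7.09-fold higher. SELENOS, which helps to draw misfolded proteins out of the ER, HYOU1, a large chaperone also raised by hypoxia, MANF, a secreted ER protein, and DNAJB11 rose by 1.62, 1.25, 1.19 and 1.14. The abundant lumenal chaperone genes HSP90B1 and CALR did not pass the test (0.20 and -0.30, adjusted p = 0.193 and 0.331).

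DNA replication genes fell almost without exception. They load the MCM helicase onto origins, copy DNA and supply nucleotides, and the E2F factors switch them on as cells enter S phase. Of 36 tested members, 34 fell and 1 rose (94.4% and 2.78%, beside 25.7% and 27.0% of all genes). The median change was -1.39 (32 lower of 36 with arrays 1 and 2 only). CCNE2 (cyclin E2), which starts S phase with CDK2, read 6.21, 5.99 and 5.85 on the H tax arrays, against 9.55, 10.18 and 9.27 on the H arrays, a change of -3.65 ± 0.20 (SE, adjusted p = 5.09e-07). MCM2, a helicase subunit, read 9.06, 9.76 and 9.22 in H tax, against 11.50, 11.85 and 11.45 in H, 4.78-fold lower. POLE2, a subunit of DNA polymerase epsilon, read 8.50, 8.90 and 8.62 in H tax, against 10.92, 11.04 and 10.53 in H, 4.45-fold lower. No array of H tax reached the level of any H array for these 3 genes. GINS2, a subunit of the complex that activates the helicase, and the helicase subunits MCM6 and MCM4 fell by 2.14, 2.04 and 1.99 on the log2 scale. CDC6, which loads MCM onto origins, was the 1 member not past the test (9.07, 9.27 and 9.29 in H tax, against 9.26, 9.53 and 9.19 in H, adjusted p = 0.461). ORC6, a subunit of the origin recognition complex, was the 1 member that rose, by 0.50 ± 0.13 (SE, adjusted p = 0.00793), and its adjusted p was 0.0996 with arrays 1 and 2 only. E2F sites were searched on both strands as TTTCCCGC and as TTTGGCGC. The first was in 9 of 32 promoters of the list (1.66% of all promoters), and all 9 of those members fell. The second was in 8 (0.659% of all promoters), of which 7 fell. With 34 of 36 members lower, these directions say nothing about the sites. GINS2 (chr16:85688955-85689015, minus strand) and MCM6 (chr2:135876558-135876625, minus strand) are shown, 1 for each form of the site, with the match in capitals, for MCM6 the first of its 2 (in GINS2 it reads on the other strand).
GINS2: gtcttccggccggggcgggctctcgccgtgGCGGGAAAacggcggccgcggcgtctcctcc
MCM6: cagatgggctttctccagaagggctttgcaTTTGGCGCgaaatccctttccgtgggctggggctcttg

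Genes of mitosis and the spindle moved the other way. Their mRNAs peak in G2 and M phase. In H tax, 18 of 30 tested members rose and 4 fell (60% and 13.3%, beside 27.0% and 25.7% of all genes). The median change was 0.38 (13 higher and 4 lower of 30 with arrays 1 and 2 only). CDC20, the activator of the anaphase-promoting complex that the spindle checkpoint restrains, read 12.54, 12.91 and 12.86 on the H tax arrays, against 10.88, 11.11 and 11.05 on the H arrays, 3.37-fold higher. PLK1, a kinase of mitotic entry and spindle assembly, read 10.70, 11.03 and 11.09 in H tax, against 8.89, 9.39 and 9.46 in H, 3.24-fold higher. CCNB1 (cyclin B1), the partner of CDK1, read 13.57, 13.50 and 13.72 in H tax, against 12.02, 12.31 and 12.21 in H, 2.67-fold higher. In each of the 3, all H tax arrays were higher than all H arrays. KIF2C, a kinesin that takes microtubules apart at kinetochores, AURKA, a spindle pole kinase, and CENPA, the histone of the centromere, rose by 1.16, 1.15 and 1.05. For AURKA, 1 of the other 2 probe sets was not called (-0.02). CDK1 itself, which is also expressed in S phase, fell by 1.09 (adjusted p = 1.08e-05), and TOP2A, the topoisomerase that untangles chromosomes, fell by 1.09 (adjusted p = 3.65e-05), although 1 of its other 2 probe sets did not (0.24). By the test of the difference, the effect in hypoxia minus that in normoxia was over 0 for 7 of 30 members, where 1.01% of all genes passed in that direction. For CDC20 the changes were 1.75 in hypoxia and 0.53 in normoxia, a difference of 1.22 ± 0.18 (SE, adjusted p = 0.0203), and for PLK1 they were 1.70 and 0.38, a difference of 1.31 ± 0.23 (SE, adjusted p = 0.0293). CCNB1 read 13.60 ± 0.11 in H tax, 12.18 ± 0.15 in H, while the normoxic means were 13.75 ± 0.04 in N tax and 13.27 ± 0.06 in N (SD, n = 3 each), so the H mean was the lowest of the 4. These differences had adjusted p = 0.245, 0.25 and 0.207 for CDC20, PLK1 and CCNB1 with arrays 1 and 2 only. Without N array 2 the differences of CDC20, PLK1, CCNB1 and CENPA were not past the test either (adjusted p = 0.0607, 0.0741, 0.0607 and 0.072). Over 20 alternatives, source-name placement aside, the call was lost in 5 for CDC20, 9 for PLK1, 2 for CCNB1 and 10 for CENPA. The count of differences in this list thus depends on several of the arrays.

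**Figure D3:**
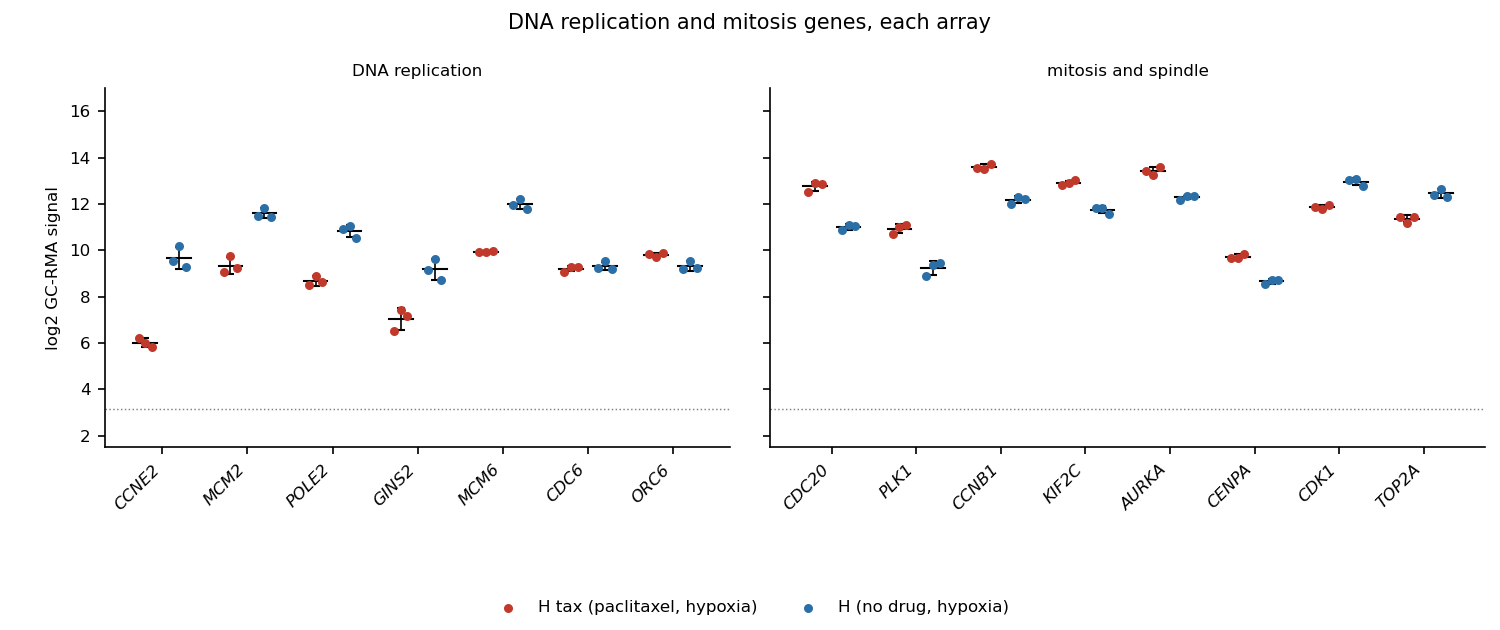
Log2 GC-RMA signal on each array (points) of 15 genes in H tax (red, left) and H (blue, right), with the mean and SD of 3 arrays. The dotted line is the presence threshold of 3.14. Replication genes from CCNE2 to MCM6 lie lower in H tax, and CDC20 to CENPA lie higher.

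Targets of p53 were mostly higher, in a line whose p53 is mutant. Of this list 15 of 25 tested members rose and 3 fell (60% and 12%, beside 27.0% and 25.7% of all genes). The median change was 0.50 (12 higher and 2 lower of 25 with arrays 1 and 2 only). CDKN1A (p21), the inhibitor of cyclin-dependent kinases, read 12.11, 11.74 and 12.02 on the H tax arrays, against 10.59, 10.06 and 10.29 on the H arrays, 3.13-fold higher. GADD45A and GADD45B, stress sensors of the p38 and JNK pathways, rose by 2.25 ± 0.25 (SE, adjusted p = 3.6e-05) and 1.44 ± 0.19 (SE, adjusted p = 0.000104). PMAIP1 (NOXA), a BH3-only protein that neutralizes MCL1, read 12.19, 12.16 and 12.04 in H tax, against 9.58, 9.80 and 9.60 in H, 5.53-fold higher. PMAIP1, SESN2 and GADD45A also answer ATF4 or other stress factors. DDB2, a sensor of ultraviolet damage, fell by 1.17 on the log2 scale (adjusted p = 0.00524, and 0.0784 with arrays 1 and 2 only).

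The apoptosis lists lay near the shares of all genes, 27.0% higher and 25.7% lower. In the BCL2 family 6 of 16 tested members rose and 3 fell (37.5% and 18.8%), and among death receptors and caspases 8 of 22 tested members rose and 6 fell (36.4% and 27.3%), and nothing is read from these counts. Beside PMAIP1, the pro-apoptotic BCL2L11 (BIM) rose by 1.03 ± 0.20 (SE, adjusted p = 0.00136) and the anti-apoptotic BCL2L2 (BCL-W) by 1.79 ± 0.12 (SE, adjusted p = 1.05e-06). For BCL2L11 the adjusted p was 0.156 in a fit of all 6 conditions of the series and 0.0674 with arrays 1 and 2 of H tax and H alone. BID, the BH3-only protein that links death receptors to mitochondria, read 8.26, 8.68 and 8.55 on the H tax arrays, against 9.67, 9.89 and 9.77 on the H arrays, 2.43-fold lower. BCL2L1 (BCL-XL), a survival member, did not pass the test (-0.14, adjusted p = 0.282). Of the TRAIL receptors, TNFRSF10A (DR4) and TNFRSF10B (DR5), which carry death domains, rose by 0.94 and 0.81, and the decoy TNFRSF10D fell by 1.97 on the log2 scale. For TNFRSF10B the adjusted p was 0.00279, and 0.0614 with arrays 1 and 2 only. TNFSF10, which encodes TRAIL, read 8.88, 8.88 and 7.90 in H tax, against 9.08, 8.72 and 8.20 in H and did not pass the test (-0.11, adjusted p = 0.818). TNFRSF21 (DR6) fell 2.57-fold, and CASP4, an inflammatory caspase that interferon also induces, read 8.05, 7.95 and 7.95 in H tax, against 6.18, 5.72 and 5.65 in H, 4.38-fold higher.

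Of the genes of the drug's own target, the 4 that rose were beta-tubulins. Of 10 alpha- and beta-tubulin genes tested, 4 rose and 2 fell, with a median change of 0.00. These are 40% and 20%, beside 27.0% and 25.7% of all genes. With arrays 1 and 2 only 3 rose and 1 fell, and nothing is read from counts of so few genes. TUBB2A, a class II beta-tubulin, read 12.40, 12.19 and 12.25 on the H tax arrays, against 11.23, 11.28 and 10.94 on the H arrays, 2.19-fold higher. TUBB6 (class V) read 12.60, 12.69 and 12.66 in H tax, against 12.11, 12.05 and 11.78 in H, 1.59-fold higher, and TUBB3 (class III), often discussed in taxane resistance, read 13.46, 13.80 and 13.66 in H tax, against 13.07, 13.23 and 12.96 in H, 1.47-fold higher. With arrays 1 and 2 of H tax and H alone TUBB3 did not pass the test (limma, adjusted p = 0.121). TUBB4B rose by 0.45 ± 0.10 (SE, adjusted p = 0.00299), with an adjusted p of 0.0562 when arrays 1 and 2 alone were used. The alpha-tubulins of the TUBA1 group and TUBB did not pass the test, with changes of 0.04 for TUBA1A, -0.04 for TUBA1B, -0.05 for TUBA1C and -0.10 for TUBB (adjusted p = 0.853, 0.684, 0.611 and 0.372). TUBA4A fell by 0.52 on the log2 scale (adjusted p = 0.00117). TUBB2B lay near the presence threshold (2.93, 2.68 and 2.93 in H tax, against 3.36, 3.24 and 3.54 in H), its change of -0.53 had an adjusted p of 0.0269, and 0.0574 to 0.0923 without H array 1, H array 3 or H tax array 2, and 0.169 with arrays 1 and 2 only. Tubulin genes are near-identical in places, and several of these probe sets carry the suffix that Affymetrix gives to probes shared between genes, so their signals may be mixed. Of 26 microtubule-associated proteins, 7 were higher and 8 lower (26.9% and 30.8%), near the shares of all genes, 27.0% and 25.7%, and nothing is read from these counts. MAP2, a stabilizer known from dendrites, read 5.59, 5.25 and 5.59 in H tax, against 3.46, 3.43 and 3.35 in H, 4.17-fold higher, and KIF1B, a kinesin motor, rose by 1.49. STMN1 (stathmin) and STMN3, which bind free tubulin and promote shrinkage, fell by 0.78 and 1.14 on the log2 scale (adjusted p = 0.00101 and 2.69e-06). TUBE1 (epsilon-tubulin), a centriole protein, rose by 1.70 ± 0.23 (SE, adjusted p = 0.000112).

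Genes of the hypoxic response fell more often than they rose. Of the HIF target list 3 of 29 tested members rose and 13 fell (10.3% and 44.8%, beside 27.0% and 25.7% of all genes). The median change was -0.36. With arrays 1 and 2 only the counts were 1 higher and 7 lower of 29, beside 2137 and 2416 of 10985 genes. The share that fell was then near that of all genes, and nothing is read from it. In normoxia 12 members were higher and 3 lower in N tax than in N (median 0.17), and the difference between the effects was under 0 for 6 of 29, where 0.624% of all genes passed in that direction. MIR210HG, the host transcript of miR-210, read 7.26, 7.10 and 6.91 on the H tax arrays, against 9.32, 8.88 and 8.21 on the H arrays, 3.28-fold lower. EGLN3 (PHD3), a HIF prolyl hydroxylase that is itself a HIF target, read 5.72, 5.46 and 4.53 in H tax, against 7.40, 6.68 and 6.68 in H, 3.21-fold lower. HILPDA, a lipid droplet protein, read 10.25, 9.98 and 9.72 in H tax, against 11.33, 10.93 and 10.52 in H, and ANGPTL4, an inhibitor of lipoprotein lipase, read 10.00, 10.22 and 9.20 in H tax, against 10.94, 10.52 and 10.78 in H. In each of these the H tax arrays lay lower than the H arrays but higher than every array of N tax and N. BNIP3L (NIX), a receptor of mitophagy, fell by 0.92 on the log2 scale (adjusted p = 0.00115), while its other probe set gave 0.05 and was not called. RORA, a nuclear receptor, changed by -2.15 ± 0.51 (SE, adjusted p = 0.00484), with H tax array 1 at 5.04 and the other H tax arrays under the presence threshold, and had an adjusted p of 0.0855 with arrays 1 and 2 only. Other strong HIF targets did not pass the test, as NDRG1, a stress-induced differentiation gene, read 15.45, 15.25 and 15.06 in H tax, against 15.55, 15.21 and 15.21 in H (adjusted p = 0.791), and BNIP3, another mitophagy receptor, read 14.92, 14.55 and 14.65 in H tax, against 14.58, 14.81 and 14.62 in H (adjusted p = 0.847). KDM3A, a histone demethylase that HIF-1 induces, was among the 3 that rose, by 0.65 ± 0.14 (SE, adjusted p = 0.00275). Its adjusted p was 0.184 in a fit of all 6 conditions of the series and 0.0966 with arrays 1 and 2 of H tax and H alone. HIF1A itself read 12.35, 12.11 and 12.67 in H tax, against 11.74, 11.88 and 12.32 in H, while the normoxic arrays read 13.61, 13.70 and 13.71 in N tax, against 13.84, 13.91 and 13.91 in N. Its change of 0.40 in hypoxia had an adjusted p of 0.059, which fell under the threshold in 6 alternatives, among them arrays 1 and 2 only (adjusted p = 0.0302), without H tax array 2 (0.0212) and without H array 3 (0.00864).

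Glycolysis genes fell or did not pass the test. Of this list 7 of 19 tested members fell and 0 rose (limma, with 0 higher at an unadjusted p under 0.05) (median -0.16). That is 36.8% lower, beside 25.7% of all genes, and nothing is read from this count. With arrays 1 and 2 only 6 of 19 fell. In normoxia 11 of the 19 fell and 0 rose (median -0.31). ALDOC, aldolase C, read 10.00, 9.91 and 9.59 on the H tax arrays, against 12.03, 11.60 and 11.75 on the H arrays, 3.89-fold lower. PFKL, the liver type of phosphofructokinase, and ENO2, a neuronal enolase that hypoxia raises, fell by 0.81 and 0.41 on the log2 scale. GAPDH read 16.34, 16.40 and 16.37 in H tax, against 16.41, 16.41 and 16.32 in H, with a change of -0.01 (adjusted p = 0.92). Of 27 tested genes that the study tabulated, 15 fell and 2 rose, with a median of -0.47, and since the study chose those genes on these samples, their direction here is no independent evidence. DEPP1, a regulator of autophagy downstream of FOXO, read 7.71, 7.18 and 6.50 in H tax, against 9.57, 8.79 and 9.13 in H, and SPAG4, an outer nuclear membrane protein, read 10.62, 10.84 and 10.44 in H tax, against 11.82, 11.82 and 11.68 in H. Both were lower with paclitaxel.

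The genes that the study also followed by qRT-PCR behaved in different ways. TMEM45A, a transmembrane protein of little known function, read 11.26, 11.05 and 10.70 on the H tax arrays, against 11.43, 11.34 and 11.26 on the H arrays, and 7.31, 6.87 and 7.53 in N tax, against 4.62, 4.50 and 5.79 in N. Its change did not pass the test in hypoxia (-0.34, adjusted p = 0.374) and passed it in normoxia (2.27, adjusted p = 0.000152), and the difference was -2.61 ± 0.43 (SE, adjusted p = 0.026). The adjusted p of this difference was 0.0432 with arrays 1 and 2 only, and reached 0.0556 to 0.0651 without N array 1, N array 2, N tax array 1, N tax array 3, H array 1, H tax array 2 or H tax array 3. CALHM6, a channel-like membrane protein, read 7.09, 7.06 and 6.98 in H tax, against 8.57, 8.52 and 8.44 in H, 2.76-fold lower, while S100A10, the partner of annexin A2, changed by -0.17 (adjusted p = 0.101), although its other probe set rose by 1.43. STC1 (stanniocalcin 1), a secreted glycoprotein, changed by -0.30 (adjusted p = 0.222, and 0.0299 without H tax array 1), and GDF15 rose as given with the stress response.

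**Figure D4:**
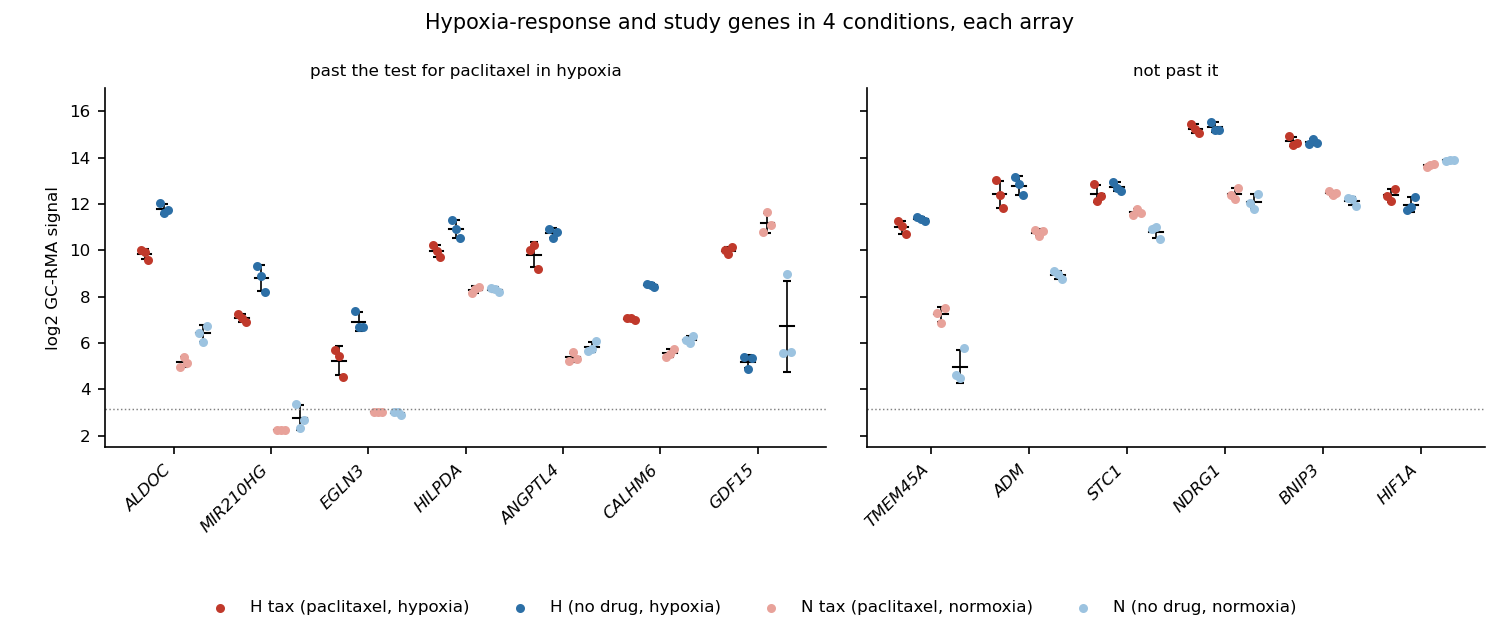
Log2 GC-RMA signal on each array (points) of 13 genes in H tax, H, N tax and N (left to right), with the mean and SD of 3 arrays. The dotted line is the presence threshold of 3.14. MIR210HG and EGLN3 lie near or under the threshold in normoxia and are lower in H tax than in H, TMEM45A and ADM differ little between H tax and H and are higher in N tax than in N, and GDF15 has 1 high array in N.

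Genes of oxidative stress, metal binding and ABC transport were counted next. Of targets of NRF2, the factor of the antioxidant response, 9 of 18 tested members rose and 0 fell (limma, with 0 lower at an unadjusted p under 0.05). That is 50% higher, beside 27.0% of all genes. With arrays 1 and 2 only the counts were 8 higher and 1 lower of 18. HMOX1 (heme oxygenase 1) read 10.25, 9.32 and 9.23 on the H tax arrays, against 6.90, 6.90 and 6.86 on the H arrays, 6.56-fold higher. SRXN1 (sulfiredoxin) and OSGIN1 rose by 2.54 and 2.77. Of the metallothioneins, which bind zinc and copper, 7 of 8 rose (87.5%, beside 27.0% of all genes) and 3 did with arrays 1 and 2 only. Their median change was 0.34, and their genes are so alike that probe sets may read several. Among ABC transporters 5 of 9 fell and 0 rose (limma, with 1 higher at an unadjusted p under 0.05). That is 55.6% lower, beside 25.7% of all genes, and with arrays 1 and 2 only 4 of 9 fell. Nothing is read from counts of so few genes. ABCG2 (breast cancer resistance protein) averaged 4.06 ± 0.27 in H tax and 5.62 ± 0.45 in H (SD, n = 3 each), 2.96-fold lower, and ABCC4 and ABCB10 fell by 1.21 and 1.22 on the log2 scale.

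Genes of lysosomes and autophagy were more often higher than lower. Of them 18 of 34 tested members rose and 4 fell (52.9% and 11.8%, beside 27.0% and 25.7% of all genes). The median change was 0.34, and with arrays 1 and 2 only 15 rose and 5 fell of 34. SQSTM1 (p62), an autophagy receptor, read 14.38, 14.16 and 14.47 on the H tax arrays, against 12.33, 12.16 and 12.36 on the H arrays, 4.15-fold higher, while 2 of its 3 other probe sets were also called and 1 gave a change of -0.06. GABARAPL1 and MAP1LC3B, the ubiquitin-like proteins that coat autophagosomes, rose by 2.48 ± 0.19 (SE, adjusted p = 2.75e-06) and 1.68 ± 0.13 (SE, adjusted p = 3.2e-06), and NEU1, a lysosomal sialidase, by 1.51. Histone genes with polyadenylated transcripts went both ways, 7 higher and 3 lower of 14 (50% and 21.4%, beside 27.0% and 25.7% of all genes). H2AC6 was 4.47-fold higher. Genes of sterol and fatty acid synthesis fell in 13 of 24 cases and rose in 1 (54.2% and 4.17%). The shares of all genes were 25.7% and 27.0%. The median was -0.48, and with arrays 1 and 2 only 9 fell and 1 rose of 24. ACACA, acetyl-CoA carboxylase, fell by 1.08 on the log2 scale (adjusted p = 6.57e-05), while its other probe set gave -0.12, and INSIG1, the ER anchor of SREBP, fell by 0.87 (adjusted p = 0.00502, and 0.0501 with arrays 1 and 2 only).

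Lists of the cytoskeleton and the Hippo pathway lay near or under the shares of all genes, 27.0% higher and 25.7% lower, and nothing is read from their counts. Of SRF and actin genes 4 rose and 5 fell of 24 (16.7% and 20.8%), and with arrays 1 and 2 only 0 rose and 3 fell. Of YAP and TEAD targets 4 rose and 7 fell of 23 (17.4% and 30.4%), and with arrays 1 and 2 only the counts were 2 higher and 6 lower of 23. In the invasion and matrix list 5 of 21 tested members rose and 10 fell (23.8% and 47.6%). With arrays 1 and 2 only 3 were higher and 9 lower of 21. PLAUR, the urokinase receptor, read 13.40, 13.64 and 13.96 in H tax, against 12.20, 12.06 and 12.28 in H, 2.8-fold higher, and MMP1, an interstitial collagenase, rose by 1.14 ± 0.28 (SE, adjusted p = 0.00564), with an adjusted p of 0.0736 from arrays 1 and 2 only. ITGB4, the integrin of hemidesmosomes, and CXCR4, the receptor of CXCL12, fell by 1.76 and 1.26 on the log2 scale. Of 8 EGF receptor ligands, 2 rose and 1 fell (25% and 12.5%), and nothing is read from so few. Among 23 genes of cytosolic ribosomal proteins, 0 were higher and 0 lower by limma, with 3 higher and 0 lower at an unadjusted p under 0.05.

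The effect of paclitaxel kept its sign in hypoxia and in normoxia for most genes that it moved. Of 5820 genes called in hypoxia, 5526 had the same sign in normoxia and 4134 were also called there with that sign, out of 5406 called in normoxia (48.9%, and 45.9% of probe sets). The difference between the effects passed the test for 112 genes in the higher direction (1.01%) and 69 in the lower (0.624%), 1.64% in all, and by probe set for 209 (0.886%) and 147 (0.623%). Higher here means that the effect in hypoxia minus that in normoxia was over 0. Of these 181 genes, 90 rose in hypoxia more than in normoxia, 55 fell more, and 9 were called in opposite directions. The counts depended on the arrays used. With arrays 1 and 2 only the difference passed for 1 gene higher and 5 lower, and over the fits that left out 1 array the probe set counts ran from 5 to 476 higher and from 22 to 291 lower, the least without N array 2 and the most without H tax array 1. Of 19 named genes with a difference past the test, RASSF2 and TMEM45A were the 2 that passed it with arrays 1 and 2 only.

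Most of the 10 largest differences were of genes whose level was highest in H. Presence was asked of H tax or H alone, so genes present only in normoxia were not tested. RASSF2, SLC27A3 and PPFIA4 passed that filter through H only, and nothing is read from this lean toward H. RASSF2, a RAS-binding tumour suppressor, read 2.23, 2.23 and 2.23 on the H tax arrays, against 5.60, 5.69 and 5.79 on the H arrays, and lay at the array floor in normoxia (2.23, 2.23 and 2.23 in N tax, against 2.23, 2.33 and 2.23 in N). It was at least 5.88-fold lower in H tax than in H, and its difference between oxygen levels was -3.43, which passed the test, also with arrays 1 and 2 only. Values at the array floor hardly vary, so the SE and p of such a difference understate its error and are not given. UCN2 (urocortin 2), a stress peptide of the corticotropin-releasing family, read 5.16, 4.60 and 4.65 in H tax, against 8.05, 8.20 and 8.06 in H, and 3.25, 3.43 and 3.43 in N tax, against 3.94, 3.87 and 4.07 in N, a difference of -2.71 ± 0.19 (SE, adjusted p = 0.000156). For both genes the H arrays stood higher than the arrays of the other 3 conditions. SLC27A3, a fatty acyl-CoA synthetase, ARTN (artemin), a ligand of the RET receptor complex, and PPFIA4, a liprin of synapses, had differences of -2.98, -2.56 ± 0.48 (SE, adjusted p = 0.0355) and -2.08, and SLC27A3 and PPFIA4 were under the presence threshold on all N tax and N arrays and on 2 of 3 H tax arrays, so their SE and p are left out as well. In H tax the 3 averaged 2.90, 4.76 and 2.68, against 5.95, 8.01 and 4.76 in H and 2.65, 5.34 and 2.23 in N. ABCA7, a lipid transporter, and LINC02535, a long noncoding RNA, were also highest on the H arrays, with differences of -1.82 ± 0.26 (SE, adjusted p = 0.0172) and -1.89 ± 0.31 (SE, adjusted p = 0.0254).

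For other genes paclitaxel moved the level more in normoxia than in hypoxia, or the other way round. ADM (adrenomedullin), a vasodilator peptide and HIF target, read 13.02, 12.41 and 11.84 in H tax, against 13.16, 12.87 and 12.37 in H, and 10.86, 10.61 and 10.84 in N tax, against 9.10, 8.99 and 8.77 in N. Its change was -0.38 in hypoxia (adjusted p = 0.271) and 1.82 in normoxia (adjusted p = 0.00032), a difference of -2.20 ± 0.38 (SE, adjusted p = 0.029) that had an adjusted p of 0.0533 to 0.0709 in 8 of the fits without 1 array and 0.188 with arrays 1 and 2 only. DDIT4 changed by 0.27 in hypoxia and 1.44 in normoxia, a difference of -1.17 ± 0.15 (SE, adjusted p = 0.00894) that had an adjusted p of 0.224 with arrays 1 and 2 only and 0.842 in a fit of all 6 conditions. Its change in hypoxia passed the test without H array 1, N tax array 1 or N tax array 2 (adjusted p = 0.0366, 0.0495 and 0.0396). VLDLR, the very low density lipoprotein receptor, fell in hypoxia (-0.69, adjusted p = 0.00489, and 0.0597 with arrays 1 and 2 only) and rose in normoxia (0.91, adjusted p = 0.00108), with a difference of -1.59 ± 0.23 (SE, adjusted p = 0.0172). TFRC, the transferrin receptor that brings iron into cells, was the gene among the 10 largest differences whose effect was higher in hypoxia. It read 12.04, 11.74 and 11.72 on the H tax arrays, against 9.10, 9.52 and 10.23 on the H arrays, and 12.90, 13.03 and 13.02 in N tax, against 12.84, 12.91 and 12.90 in N, so the H arrays stood lowest and paclitaxel brought the level in hypoxia 4.63-fold higher, a difference of 2.11 ± 0.31 (SE, adjusted p = 0.0181). Of its 3 other probe sets 2 were called for paclitaxel in hypoxia, and their differences between oxygen levels ran from 0.00 to 2.47 over the 3. CALHM6 fell in both, by 1.46 in hypoxia and 0.59 in normoxia on the log2 scale, and CCL5 rose in both from a level under the presence threshold on every H and N array, so the sizes of its rises are uncertain.

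**Figure D5:**
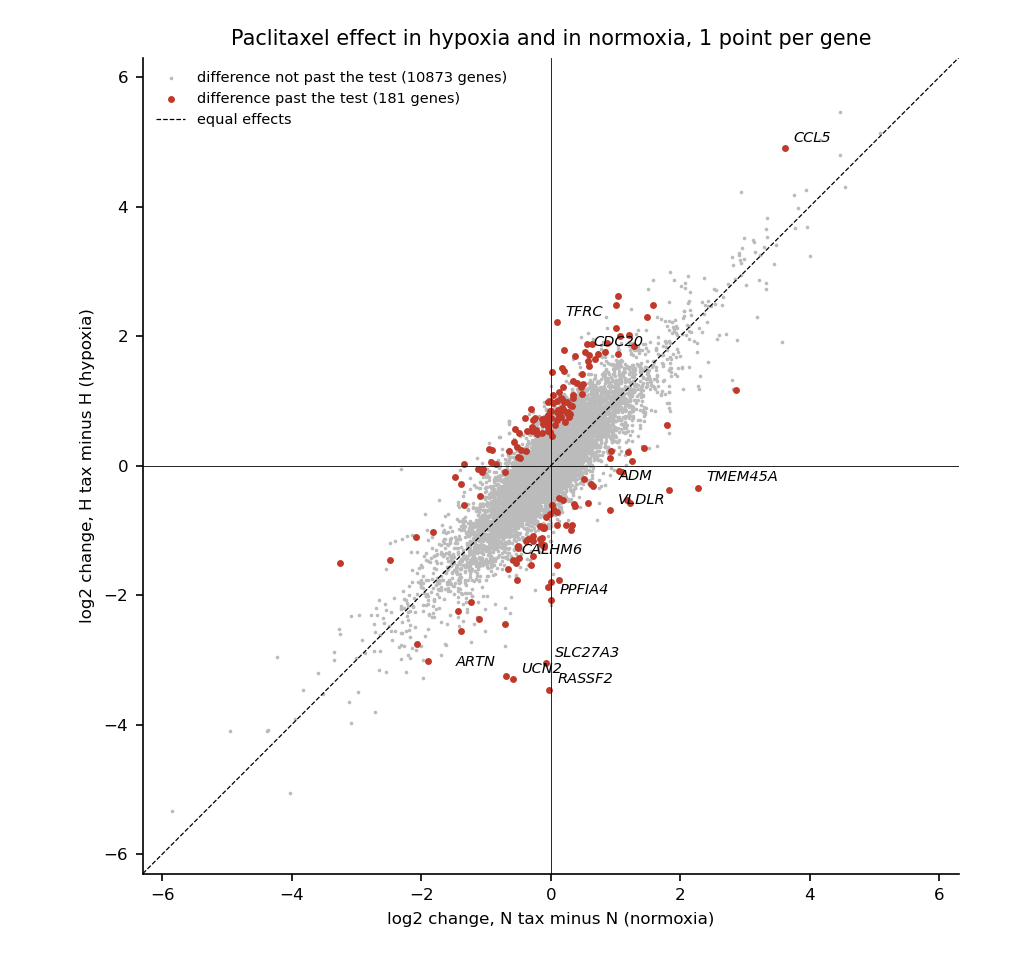
Log2 change with paclitaxel in hypoxia (H tax minus H, vertical) against that in normoxia (N tax minus N, horizontal), 1 point per gene for 11054 genes. Red points are the 181 genes whose effects differed by the test, and the dashed line marks equal effects. RASSF2, SLC27A3 and UCN2 lie far under the line, and TMEM45A and ADM lie to the right of it.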

How the data were processed

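The 12 arrays used (H tax, H, N tax and N, 3 each) are Affymetrix HG-U133 Plus 2.0 hybridizations, which the study describes as biological triplicates. The authors normalized the scans with GC-RMA and deposited log2 signals for 54613 probe sets (62 control probe sets were set aside). The methods name AffyProbeMiner probe definitions, while the deposited probe sets carry Affymetrix's own names, so the definitions behind the values are uncertain. Symbols came from the platform annotation, which gave 1 symbol for 41091 probe sets, several for 1801 and none for 11721. Intensity files were not used, and the number of arrays limits the precision.

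Probe sets with a linear signal over 8.8 on at least 2 of 3 arrays of H tax or H were tested, 23598 in all, with limma 3.58.1 in R 4.3.3 (lmFit and eBayes, 4 condition means, 3 contrasts) and Benjamini-Hochberg adjustment at 0.05. Tables and figures used pandas 2.3.3, numpy 2.4.6 and matplotlib 3.10.9. Each gene was read by 1 probe set, that of the highest mean over H tax and H. Where a condition was present on 0 of 3 arrays, a bound against the presence threshold is given as "at least". On simulated data of the same size, with 50 probe sets changed at each step, limma recovered 88% of probe sets changed by 1 and 28% of those changed by 0.5 on the log2 scale. Far more probe sets were called in the real arrays, and the simulated errors were independent, so these rates may not hold there.

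The members and lists were chosen with earlier results of these data known. Named genes are the 15 largest rises and 15 largest falls past the test without overlap, all tested alpha- and beta-tubulins, up to 6 members of each list past the test with up to 3 of the highest mean that were not, the qRT-PCR genes with TNFSF10 and HIF1A, and the 10 largest differences between oxygen levels. ASNS, ATF4, CALR, CENPA, CHAC1, IFITM1, ISG15, KDM3A, ORC6, PHGDH, SLC3A2, TOP2A, TRIB3 and VLDLR were chosen after their values were seen. Alternatives tried were arrays 1 and 2 only, arrays 1 and 2 of H tax and H alone, the third arrays by source name, other filters, scalings, variance models and sample sets, a replicate block, all probe sets of a gene, and leaving out each array. A gene list is not reported here.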

Additional observations from a re-analysis of the deposited data

Results flagged for a closer look

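Each gene below was singled out because the effect of paclitaxel in hypoxia differed from that in normoxia by limma's test of the difference, which is given on the log2 scale as hypoxia minus normoxia. The 2 effects share no arrays, and the 19 genes were among 181 with such a difference (1.64% of genes tested).

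The difference was -3.43 for RASSF2, -2.98 for SLC27A3, -2.71 for UCN2, -2.56 for ARTN, -2.08 for PPFIA4, -1.89 for LINC02535 and -1.82 for ABCA7, genes that fell in hypoxia in all 3 arrays of H tax. It was -2.61 for TMEM45A, -2.20 for ADM and -1.17 for DDIT4, whose change did not pass the test in hypoxia and rose in normoxia. VLDLR, at -1.59, was called lower in hypoxia and higher in normoxia, and CALHM6, at -0.88, fell in both. On the other side the difference was 2.11 for TFRC, 1.31 for PLK1, 1.29 for CCL5, 1.22 for CDC20, 0.97 for DNAJB1, 0.93 for CCNB1 and 0.70 for CENPA, genes that rose in hypoxia. DNAJB1 rose by 1.65 in hypoxia and 0.68 in normoxia, and CENPA by 1.05 in hypoxia and 0.35 in normoxia. With the replicate block the difference of DNAJB1 had adjusted p = 0.0651, and 11 of the fits without 1 array also ended its call. CCL5 was under the presence threshold on every array without drug, and RASSF2, SLC27A3 and PPFIA4 were under it on every normoxic array, so the sizes of these 4 differences are uncertain and their p-values rest on values at or near the array floor. With arrays 1 and 2 only, the difference passed the test for RASSF2 and TMEM45A and not for the other 17.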

How the results depend on the processing

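The paclitaxel effect in hypoxia (6004 probe sets higher, 5724 lower) kept both counts within 1.5 times under every alternative but 2. Arrays 1 and 2 of H tax and H alone gave 2702 higher and 3062 lower, and placing the third arrays by their source names gave 0 and 0 (455 and 687 at an unadjusted p under 0.05 by limma). Leaving out each array gave 5195 to 6136 higher and 4897 to 5809 lower. The difference between oxygen levels (209 higher, 147 lower) was less stable, with 3 and 14 from arrays 1 and 2 only, 0 and 0 by source name (39 and 25 unadjusted, limma), 49 and 46 without the presence filter, 338 and 230 with a trended robust variance, and 5 to 476 and 22 to 291 with each array left out, least without N array 2 and most without H tax array 1. The cause was not tested, except that fewer arrays enter the smaller fits.

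With the third arrays by source name, 19 named changes took the opposite sign, at -0.29 for AURKA, -0.38 for BCL2L11, -0.32 for CDKN1A, -0.15 for CHAC1, -0.99 for DNAJB1, -0.13 for DNAJB9, -0.43 for GADD45B, -0.67 for JUNB, -1.43 for KDM3A, -0.28 for KIF1B, -1.60 for KLF4, -0.03 for MANF, -0.47 for NFKBIE, 0.03 for STMN1, -0.18 for TNFAIP3, -0.13 for TNFRSF10B, -0.89 for TRIB3, -0.07 for TUBB3 and -0.17 for TUBB4B, and their adjusted p-values were all over the threshold there. Over the fits without 1 array, named changes kept their direction and call in 2009 of these comparisons, lost the call in 10 and gained it in 9, while named differences kept it in 150 and lost it in 78. In limma's fit of arrays 1 and 2 of H tax and H alone, 26 named changes lost the call and 143 kept their state. Among the 26 were TUBB3 (adjusted p = 0.121), ANGPTL4 (0.107), ABCG2 (0.0782), BNIP3L (0.078), TUBE1 (0.0747), EGLN3 (0.051) and DEPP1 (0.0519).

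Arrays with the same number were not paired in the main fit. The study averaged ratios from independent experiments, and whether the array numbers mark those experiments is not stated. Deviations of same-number arrays correlated at 0.186, 0.023 and 0.173 between H tax and H, and H tax array 2 correlated best with H array 3 (0.049). Between N tax and N they correlated at 0.064, 0.079 and 0.075. Apart from H tax array 2, each paclitaxel array correlated best with the control of its own number. With the replicate number as a block, 6141 probe sets were higher and 5878 lower, and the difference gave 257 and 184, with the difference of DNAJB1 no longer past the test (adjusted p = 0.0651). Values near the lowest signal, 2.23, have a small spread, which limits what such folds show.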
